A study of Homo sapiens with 9 samples.

Results

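The granins and the enzymes that process prohormones were followed in human fibroblasts driven into oncogene-induced senescence, with and without knockdown of the chromatin remodeller subunit ARID1B. The family was named as 8 genes, the granins SCG2, SCG3, SCG5, CHGA, CHGB and VGF and the processing enzymes PCSK1 and CPE. It was chosen by measured values, because SCG2 stood far higher in cells with the ARID1B hairpin, and the other members were added for their role. A member was measured where a probe set carried its symbol and no other, which held for 7 of the 8, with 1 probe set each, among 18417 genes in all. PCSK1 was not analysed here.

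All cells were IMR90 (spelled IRM90 in the labels), a human lung fibroblast line, and all carried ER:RAS, a fusion of oncogenic RAS with the oestrogen receptor's ligand domain that 4-hydroxytamoxifen (4OHT) activates. The groups were shARID1B+4OHT (a short hairpin RNA against ARID1B, with 4OHT), vector+4OHT (empty vector, with 4OHT) and vector-4OHT (empty vector, no 4OHT), with 3 arrays in each of the 3 groups and 9 arrays in all. 4OHT was given at 100 nM, and the labels state 6 days after 4OHT and 7 days of growth. The hairpin was set against an empty vector and not against a control hairpin, the labels do not say which hairpin or how many were used, and no group had 4OHT without ER:RAS or the hairpin without 4OHT. The article's legend calls the replicates biological, while the labels do not state whether each was its own culture, and the p-values cover the spread between these arrays.

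Granins are acidic proteins that gather in the trans-Golgi network, help to form dense-core secretory granules and are cut there into peptides that are released with hormones. Prohormone convertases such as PCSK1 cut precursors after pairs of basic residues, CPE trims the basic residues that are left at the new ends, and SCG5 (also called 7B2) is a chaperone of the convertase PCSK2. The family is best known from neurons and endocrine cells, where many of its genes respond to cyclic AMP through the cAMP response element (CRE), the palindrome TGACGTCA bound by factors of the CREB family. Fibroblasts are not a classical site of regulated peptide release.

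The promoters of 4 members, those with the full element and a measured level (CHGA and VGF) and those called with 4OHT whose promoter holds its shorter form (SCG5 and CPE), are shown because the family is known for this element. RefSeq promoters of assembly GRCh38.p14, running from 250 bases before the start of a gene to 50 after it, were matched by symbol for 6 of the 8 members, all but SCG2 and CHGB. The full element TGACGTCA was found in 3 of the 6, CHGA, VGF and PCSK1, and in 1.85% of all 35116 promoter windows of this length. It lay 54 to 47 bases before the start in CHGA, 79 to 72 in VGF and 77 to 70 in PCSK1. The shorter TGACG, searched on both strands, is contained in the full element and was found in 24.6% of all windows. SCG5 held it from 17 bases before the start, CPE from 221 and again from 120 bases before, and SCG3 held it on the opposite strand, from 4 bases before the start. PCSK1 held a further copy from 49 bases before the start. The 120 bases before the start are given 5′ to 3′ on the strand of the gene, VGF at chr7:101165570-101165689 (minus strand), CHGA at chr14:92923030-92923149 (plus strand), SCG5 at chr15:32641590-32641709 (plus strand) and CPE at chr4:165378888-165379007 (plus strand), with the element in capitals, full in VGF and CHGA and TGACG alone in SCG5 and CPE.
VGF: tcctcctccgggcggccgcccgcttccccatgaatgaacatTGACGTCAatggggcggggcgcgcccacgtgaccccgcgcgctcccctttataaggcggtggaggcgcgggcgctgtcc
CHGA: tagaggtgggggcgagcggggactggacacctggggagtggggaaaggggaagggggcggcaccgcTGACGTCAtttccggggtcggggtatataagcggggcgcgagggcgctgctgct
SCG5: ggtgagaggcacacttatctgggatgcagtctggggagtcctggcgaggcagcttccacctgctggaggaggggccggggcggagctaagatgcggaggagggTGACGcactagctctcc
CPE: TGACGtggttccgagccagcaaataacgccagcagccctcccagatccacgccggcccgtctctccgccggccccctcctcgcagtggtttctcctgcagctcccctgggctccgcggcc
A match is a description of the letters in these windows and was not tested for binding.

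Values were log2 levels, 1 per probe set and array, and levels of different probe sets were not compared with each other. The array medians lay between 6.70 and 6.79. ARID1B, the target of the hairpin, stood at 8.05 ± 0.088 in shARID1B+4OHT cells, 8.79 ± 0.16 in vector+4OHT cells and 8.91 ± 0.052 in vector-4OHT cells (SD, n = 3 each), and the hairpin lowered it by a log2 change of -0.73 against vector+4OHT (adjusted p = 0.000179, limma). All 10 fibroblast markers lay above 6.75, the median of all probe sets, in every group. Their mean level ranged over 11.27 to 11.30 in shARID1B+4OHT, 11.10 to 11.19 in vector+4OHT and 11.59 to 11.72 in vector-4OHT arrays. Of 8 measured neuroendocrine markers 2 lay above that median in each group, INSM1 and UCHL1, and 0 were called by limma in either comparison described below, with 0 at an unadjusted p under 0.05 with 4OHT and 1 with the hairpin. Called epithelial, endothelial and leukocyte markers numbered 2 of 8, 2 of 6 and 0 of 5 with 4OHT, where 32.6% of all genes were called, and likewise 2 of 8, 2 of 6 and 0 of 5 with the hairpin, where 15.7% of all genes were called. No leukocyte marker had an unadjusted p under 0.05 in either comparison. Above the median of all probe sets lay 4 of 8 epithelial markers in shARID1B+4OHT cells and 3 in each vector group. In every group 2 of 6 endothelial markers and 1 of 5 leukocyte markers also lay above it. The part of these markers in the results was not tested. In bulk RNA, fewer cells of a type and less RNA per cell cannot be told apart.

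The effect of RAS activation on the family was read from vector+4OHT against vector-4OHT, a contrast not known to have been used to choose the members, although it shares the vector+4OHT arrays with the knockdown comparison that was. SCG5 rose and CPE fell, each with no overlap between the arrays of the groups, and VGF rose by a small amount. SCG2, CHGA, CHGB and SCG3 did not pass the test. Of the 7 measured members 3 were called at an adjusted p under 0.05, 2 higher and 1 lower, where 32.6% of all 18417 genes were called, 14.9% higher and 17.6% lower. The median log2 change of the 7 was 0.02, and that of all genes was -0.012.

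SCG5, the convertase chaperone, read 7.14, 7.43 and 7.56 on the vector+4OHT arrays, against 6.62, 6.60 and 6.56 on the vector-4OHT arrays. All vector+4OHT arrays lay above all vector-4OHT arrays, with 0.52 between the nearest. The rise was 0.78 on the log2 scale (SE 0.092, 95% confidence interval 0.58 to 0.98), or 1.72-fold (limma, adjusted p = 6.61e-05). The vector+4OHT mean of 7.37 was above the median of all probe sets, while the means of the other groups, 6.51 in shARID1B+4OHT and 6.59 in vector-4OHT, were below it.

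CPE, the carboxypeptidase that finishes most peptide hormones, read 8.67, 8.75 and 8.82 on the vector+4OHT arrays, against 9.35, 9.28 and 9.33 on the vector-4OHT arrays. Every vector+4OHT array was lower than every vector-4OHT array, with a gap of 0.47. The log2 change was -0.57 (SE 0.051, 95% confidence interval -0.69 to -0.46), a level 0.67 times that without 4OHT (limma, adjusted p = 8.04e-06).

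VGF, a neurotrophin-induced granin whose peptides act in the nervous system, read 8.02, 8.14 and 7.93 on the vector+4OHT arrays, against 7.70, 7.93 and 7.80 on the vector-4OHT arrays. The groups touched, the lowest vector+4OHT array and the highest vector-4OHT array being level. The rise was 0.22 (SE 0.072), or 1.17-fold, at an adjusted p of 0.0371 (limma). This call was the least firm of the family. It was lost when only the 6 arrays compared were fitted (adjusted p = 0.0806), and when any one of 7 of the 9 arrays was left out (adjusted p 0.0504 to 0.14), the exceptions being vector+4OHT replicate 3 and vector-4OHT replicate 2.

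SCG2, or secretogranin II, the precursor of secretoneurin, read 7.43, 7.45 and 7.56 on the vector+4OHT arrays, against 7.18, 7.52 and 7.37 on the vector-4OHT arrays. The groups overlapped. The change was 0.12 (SE 0.088, 95% confidence interval -0.07 to 0.32, limma, adjusted p = 0.343), so a rise of up to 0.32 was within the error.

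CHGA and CHGB, the chromogranins that make up much of the granule core of endocrine cells, and SCG3, which binds CHGA and tethers it to the granule membrane, were dim on all 9 arrays, under the median probe set. CHGA read 5.76, 5.57 and 5.51 on the vector+4OHT arrays, against 5.49, 5.70 and 5.58 on the vector-4OHT arrays. CHGB read 5.83, 5.71 and 5.78 on the vector+4OHT arrays, against 5.76, 5.78 and 5.78 on the vector-4OHT arrays. SCG3 read 4.05, 3.97 and 4.02 on the vector+4OHT arrays, against 4.05, 4.09 and 4.05 on the vector-4OHT arrays. No group stood apart from the other for any of the 3 genes, and 5 of the 9 SCG3 arrays held one identical value. Their log2 changes were 0.02 for CHGA (adjusted p = 0.892), -0.0024 for CHGB (adjusted p = 0.988) and -0.05 for SCG3 (adjusted p = 0.473), all from limma. At such levels a change in transcript could go unseen, and these values do not show that the genes were silent.

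**Figure D1:**
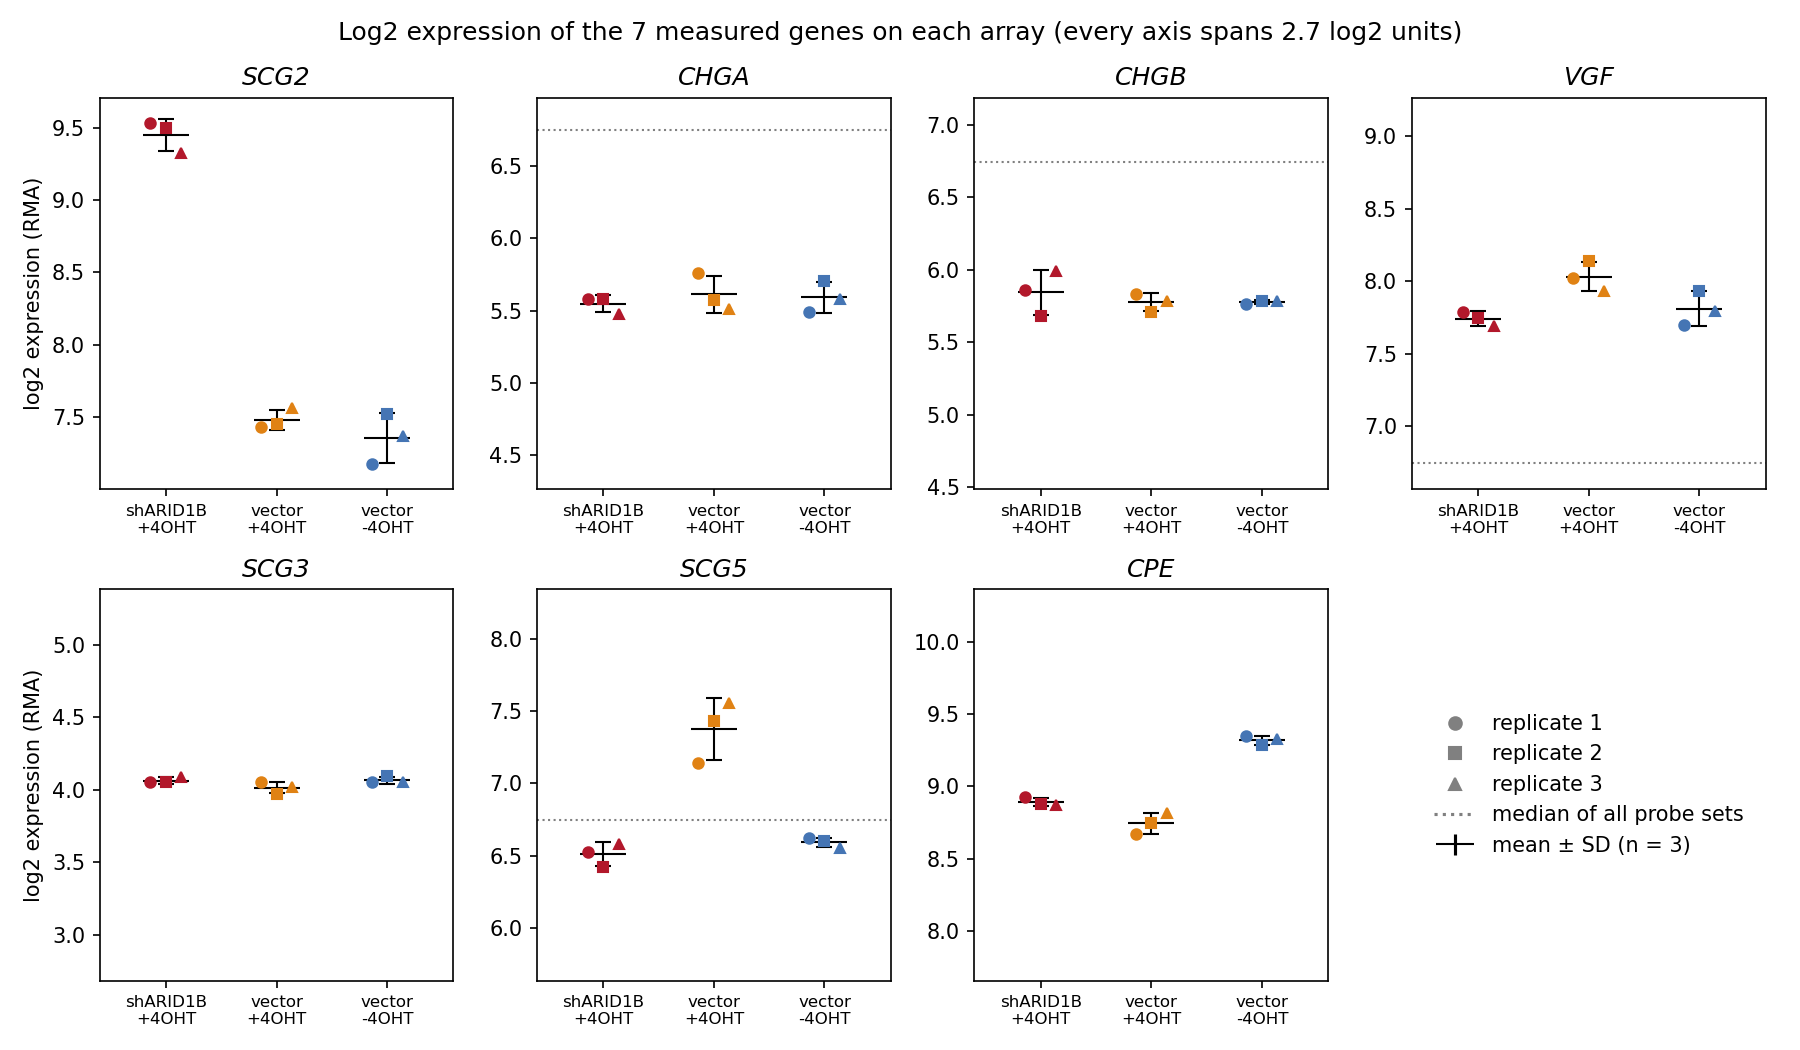
Log2 level of each measured member on each of the 9 arrays (y axis), by group (x axis, shARID1B+4OHT, vector+4OHT and vector-4OHT), with points for arrays and bars for the mean and SD of 3. Each panel has a y axis centred on its own gene, so heights are not comparable between panels. SCG2 is higher on the shARID1B+4OHT arrays than on all others, and SCG5 is higher on the vector+4OHT arrays than on all others. CHGA, CHGB and SCG3 lie under the median of all probe sets in every group.

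The question asked of the hairpin was how the family stood in 4OHT-treated cells with ARID1B knocked down, from shARID1B+4OHT against vector+4OHT. Because SCG2 was chosen on this contrast, the values of the members are a description and carry no test. SCG2 was 3.91-fold higher in shARID1B+4OHT cells, SCG5 and VGF were lower, and CPE was slightly higher. Past the threshold were 3 of the 7 members, 1 higher and 2 lower, where 15.7% of all genes were called, 9.63% higher and 6.09% lower, and nothing is read from that count. The median change of the 7 was 0.05, against -0.017 over all genes.

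SCG2 read 9.53, 9.50 and 9.33 on the shARID1B+4OHT arrays, against 7.43, 7.45 and 7.56 on the vector+4OHT arrays. The lowest shARID1B+4OHT array was 1.76 above the highest vector+4OHT array, and the arrays within each group lay close together. The means were 9.45 ± 0.11 and 7.48 ± 0.071 (SD, n = 3 each), a difference of 1.97 (SE 0.088). It ranked 2 of 18417 genes by the size of its difference. Of 16 other ways of processing, only those that left out an array of either group or subtracted array medians could change the difference. It then lay between 1.93 and 2.03.

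SCG5 stood the other way. It read 6.53, 6.43 and 6.59 on the shARID1B+4OHT arrays, against 7.14, 7.43 and 7.56 on the vector+4OHT arrays. The groups did not overlap, with 0.55 between the nearest arrays. The means were 6.51 ± 0.081 and 7.37 ± 0.21 (SD, n = 3 each), a difference of -0.86 (SE 0.092) or 0.55 times the vector+4OHT level. SCG5 ranked 119 of 18417 by size. With 1 array of either group left out or array medians subtracted, the difference lay between -0.98 and -0.77. The other ways of processing could not change it.

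VGF read 7.79, 7.75 and 7.69 on the shARID1B+4OHT arrays, against 8.02, 8.14 and 7.93 on the vector+4OHT arrays. The shARID1B+4OHT arrays were all lower, by 0.15 at the nearest. The difference was -0.29 (SE 0.072), or 0.82 times the vector+4OHT level. Leaving out 1 array at a time, it lay between -0.34 and -0.24.

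CPE read 8.93, 8.88 and 8.87 on the shARID1B+4OHT arrays, against 8.67, 8.75 and 8.82 on the vector+4OHT arrays. The groups were separate by 0.057 and the difference was 0.15 (SE 0.051). CPE stayed closer to vector+4OHT than to vector-4OHT.

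The 3 dim members showed no separation. CHGA read 5.58, 5.58 and 5.48 on the shARID1B+4OHT arrays, a difference of -0.06 from vector+4OHT. CHGB read 5.86, 5.68 and 5.99, the widest spread of its groups, at a difference of 0.07. SCG3 read 4.05, 4.05 and 4.09, at a difference of 0.05.

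**Figure D2:**
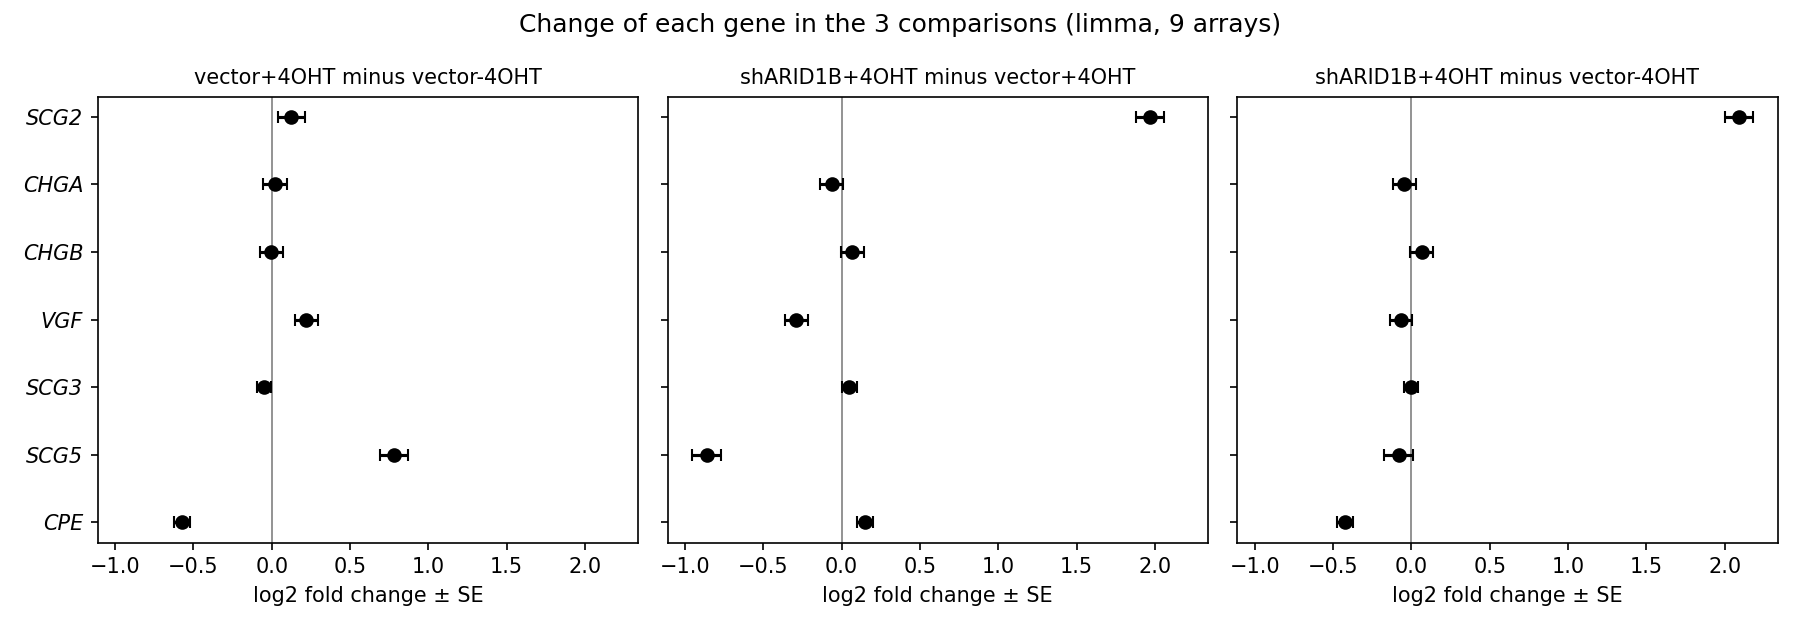
Log2 fold change of each member (x axis, points) with its standard error as a bar, in a panel each for vector+4OHT minus vector-4OHT, shARID1B+4OHT minus vector+4OHT and shARID1B+4OHT minus vector-4OHT. SCG2 lies at 1.97 with the hairpin and at 0.12 with 4OHT, while SCG5 lies at -0.86 with the hairpin and at 0.78 with 4OHT.

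Set against vector-4OHT cells, shARID1B+4OHT cells showed how each member stood with both 4OHT and the hairpin. These values share their arrays with both comparisons above and are given side by side, without a test. SCG2 was higher by 2.09 and CPE lower, at -0.43. SCG5 stood at -0.08 and VGF at -0.07, and in both genes the shARID1B+4OHT arrays overlapped the vector-4OHT arrays. Past the threshold were 2 of the 7, 1 higher and 1 lower, where 31.5% of all genes were called, 15.6% higher and 15.9% lower. SCG2 ranked 83 by size here and 2 against vector+4OHT, although its difference was 2.09 here and 1.97 there.

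Neither of 2 further relatives of the granins was called by limma, and neither had an unadjusted p under 0.05, although the methods' t-test called 1 of them lower with 4OHT. Both were named after their values were seen. PCSK1N (proSAAS), an inhibitor of PCSK1, averaged 8.60 in shARID1B+4OHT, 8.73 in vector+4OHT and 8.77 in vector-4OHT cells, with log2 changes of -0.05 with 4OHT (adjusted p = 0.77) and -0.12 with the hairpin (adjusted p = 0.429, limma). GNAS, whose locus encodes both a G protein subunit and the granin-like NESP55, was measured under the one symbol, so that NESP55 could not be read apart from the subunit, and stood at -0.06 with 4OHT (adjusted p = 0.37) and -0.01 with the hairpin (adjusted p = 0.862).

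Among 6 other proprotein convertases 1 was called with 4OHT and another with the hairpin, 16.7% each time, beside 32.6% of all genes with 4OHT and 15.7% with the hairpin. FURIN, the convertase of the constitutive pathway, rose 1.48-fold in vector+4OHT over vector-4OHT cells, with means of 9.68 ± 0.030 and 9.11 ± 0.094 (SD, n = 3 each, adjusted p = 1.47e-05, limma). Its difference with the hairpin was 0.08 (adjusted p = 0.365). PCSK5, a convertase of the secretory pathway, rose 1.45-fold in shARID1B+4OHT over vector+4OHT cells, with means of 7.33 ± 0.062 and 6.79 ± 0.034 (SD, n = 3 each, adjusted p = 7.74e-05).

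Beside CPE, 16 enzymes that trim, finish or degrade peptides were tested, of which 6 rose and 3 fell with 4OHT. Dim in every group were 3 of the 16, and the share among all genes was not matched for level. Their share called was 56.2%, beside 32.6% of all genes, and their median change was 0.086. QPCT, the glutaminyl cyclase that makes the pyroglutamate end of several hormones, rose 5.68-fold in vector+4OHT over vector-4OHT cells, with means of 10.05 ± 0.046 and 7.55 ± 0.17 (SD, n = 3 each, adjusted p = 2.24e-09, limma). Its Golgi relative QPCTL rose by 0.39 (adjusted p = 0.000157), the peptide-degrading membrane protease MME (neprilysin) by 0.60 (adjusted p = 1.05e-05), and the protease CTSL by 0.53 (adjusted p = 2.19e-05). CPM, a membrane carboxypeptidase that removes basic residues as CPE does, fell with 4OHT by 0.64 (adjusted p = 0.000241). PAM, which amidates the ends of peptides and was named after its value was seen, fell by 0.25 (adjusted p = 0.00411).

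With the hairpin 1 of these 16 rose and 2 fell, 18.8% beside 15.7% of all genes. CPM rose 3.40-fold, to 9.46 ± 0.0996 in shARID1B+4OHT cells, against 7.70 ± 0.19 in vector+4OHT cells (SD, n = 3 each, adjusted p = 2.42e-06, limma). MME fell by 0.54 (adjusted p = 0.000118). QPCTL fell by 0.22 (adjusted p = 0.0167), with one value repeated on its 3 shARID1B+4OHT arrays. The count of falls was 1 without vector+4OHT replicate 2, without any one of the shARID1B+4OHT arrays or with array medians subtracted, and 3 with only the 6 arrays compared. QPCT stayed high, at a difference of -0.18 (adjusted p = 0.15).

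The machinery that builds, docks and releases dense-core granules was covered by 43 genes, of which 13 were dim in every group. With 4OHT 8 rose and 6 fell, 32.6% of the list, which is the share among all genes, at a median change of -0.0045. SYTL5, a synaptotagmin-like effector of RAB27, rose by 1.68, to 7.42 ± 0.066 in vector+4OHT cells, against 5.74 ± 0.18 in vector-4OHT cells, where it was dim (SD, n = 3 each, adjusted p = 4.27e-07, limma). RAB3A, a GTPase of regulated exocytosis, rose 1.94-fold (adjusted p = 2.42e-05), and the plasma membrane SNARE STX1A 1.46-fold (adjusted p = 5.35e-05). SYTL2, another RAB27 effector, fell by 0.72 (adjusted p = 3.13e-06).

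With the hairpin 9 of the 43 rose and 1 fell, 23.3% beside 15.7% of all genes, at a median of 0.018. RAB27B, which docks granules at the plasma membrane, rose 2.24-fold, to 9.63 ± 0.095 in shARID1B+4OHT cells, against 8.47 ± 0.053 in vector+4OHT cells (SD, n = 3 each, adjusted p = 3.37e-06, limma). Its paralog RAB27A rose by 0.45 (adjusted p = 0.0023) and SYTL5 rose further, to 8.42 ± 0.18 in shARID1B+4OHT cells, against 7.42 ± 0.066 in vector+4OHT cells (SD, n = 3 each, adjusted p = 0.000114). EIPR1, which works in sorting cargo to dense-core granules, fell by 0.37 (adjusted p = 0.00159), having risen by 0.41 with 4OHT (adjusted p = 0.000245). Its changes share the vector+4OHT arrays and are not independent. The count of rises was 5 when shARID1B+4OHT replicate 2, shARID1B+4OHT replicate 3 or vector+4OHT replicate 1 was left out, and 2 genes were called lower without vector+4OHT replicate 3.

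**Figure D3:**
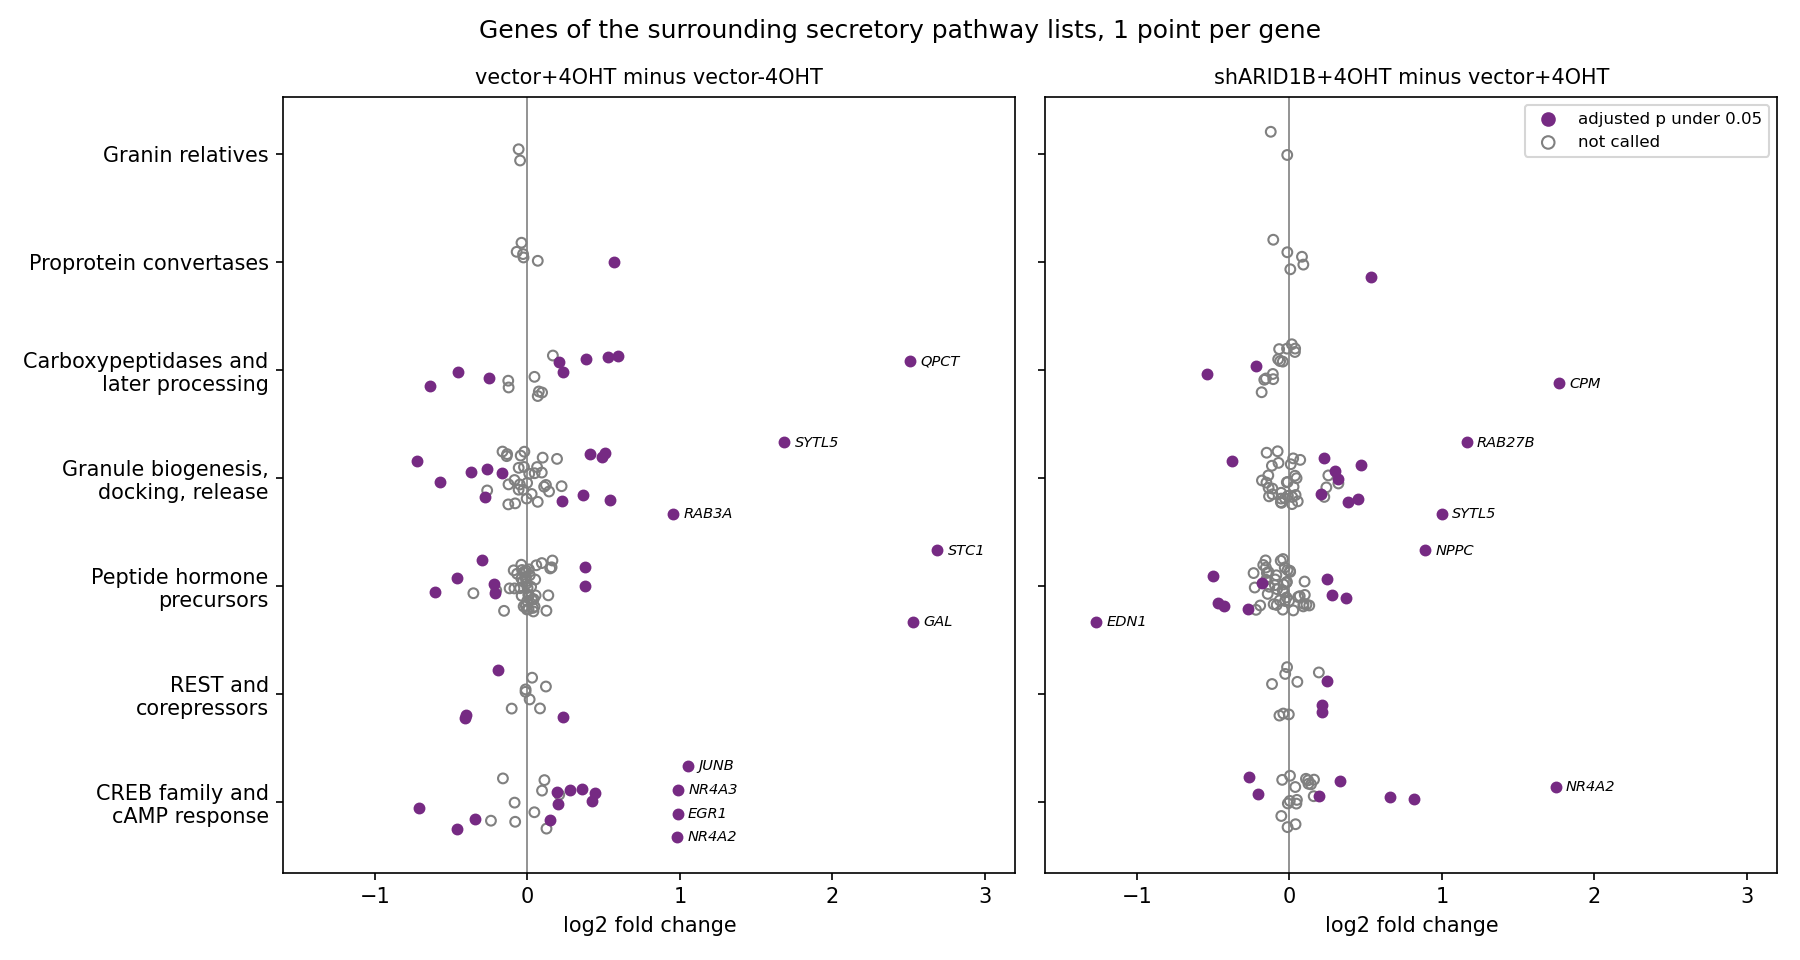
Log2 change of each gene of the surrounding lists (x axis), 1 point per gene and 1 band per list, for vector+4OHT minus vector-4OHT on the left and shARID1B+4OHT minus vector+4OHT on the right, with filled points for genes called at an adjusted p under 0.05. QPCT, STC1 and GAL stand far to the right with 4OHT, and CPM, NR4A2 and RAB27B with the hairpin, while EDN1 stands to the left at -1.27.

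Precursors of peptide hormones and neuropeptides, the cargo of this pathway, mostly did not pass the test. Of 53 genes, 28 were dim in every group. With 4OHT 4 rose and 5 fell, 17% of the list beside 32.6% of all genes, at a median of -0.0032. STC1, stanniocalcin, a hormone of calcium and phosphate handling, rose 6.45-fold, to 13.36 ± 0.017 in vector+4OHT cells, against 10.67 ± 0.051 in vector-4OHT cells (SD, n = 3 each, adjusted p = 3.83e-11, limma). GAL, the precursor of the neuropeptide galanin, rose 5.78-fold, to 9.91 in vector+4OHT cells, against 7.38 in vector-4OHT cells (adjusted p = 1.42e-10). ADM, the vasodilator adrenomedullin, fell by 0.61 (adjusted p = 1.79e-06), and STC2, the paralog of STC1, fell by 0.46 (adjusted p = 0.000322). The number that fell was 3 when vector+4OHT replicate 2 was left out or array medians were subtracted.

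With the hairpin 4 precursors rose and 6 fell, 18.9% beside 15.7% of all genes. NPPC, the precursor of C-type natriuretic peptide, rose 1.85-fold, to 10.02 ± 0.10 in shARID1B+4OHT cells, against 9.13 ± 0.058 in vector+4OHT cells (SD, n = 3 each, adjusted p = 1.07e-05, limma). GAL rose further by 0.37 (adjusted p = 0.00103), whereas STC1 stood at a difference of 0.09 (adjusted p = 0.245). EDN1, the vasoconstrictor endothelin, fell by 1.27, to 8.27 ± 0.10 in shARID1B+4OHT cells, against 9.54 ± 0.13 in vector+4OHT cells (SD, n = 3 each, adjusted p = 3.59e-06). ADM fell by 0.50 (adjusted p = 4.96e-05), in the direction of its change with 4OHT.

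REST is a repressor that keeps neuronal and secretory genes off in other cells, and granin genes are among its known targets. REST itself, named after its value was seen, averaged 10.14 in shARID1B+4OHT, 9.95 in vector+4OHT and 9.93 in vector-4OHT cells, at 0.02 with 4OHT (adjusted p = 0.906) and 0.19 with the hairpin (adjusted p = 0.0706, limma). Of 11 genes for REST and its corepressors 1 rose and 3 fell with 4OHT, 36.4% beside 32.6% of all genes, among them RCOR3 by 0.41 (adjusted p = 0.000445) and the phosphatase CTDSP1 by 0.40 (adjusted p = 9e-04). With the hairpin 3 rose, 27.3% beside 15.7% of all genes, and 0 of the 11 were dim in every group. The 3 that rose were RCOR1 by 0.21 (adjusted p = 0.0284), SIN3A by 0.21 (adjusted p = 0.0486) and CTDSP1 by 0.24 (adjusted p = 0.0352). The count of rises was 0 or 1 without any one of the shARID1B+4OHT arrays, vector+4OHT replicate 1 or 3 or vector-4OHT replicate 2, with only the 6 arrays compared, with a replicate block and by the methods' t-test.

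Genes of the CREB family, its coactivators and cAMP-responsive genes were 23, of which 3 were dim in every group. The share among all genes includes dim genes, so the shares are not matched for level. With 4OHT 11 rose and 3 fell, 60.9% beside 32.6% of all genes, at a median of 0.15. The 3 that fell were the family member CREB5 and the coactivators CRTC3 and CREBBP, named after their values were seen. They stood at -0.71 (adjusted p = 4.73e-05), -0.46 (adjusted p = 0.000252) and -0.34 (adjusted p = 0.00363, limma). The immediate early genes JUNB and EGR1 rose 2.07-fold (adjusted p = 3.33e-08) and 1.98-fold (adjusted p = 2e-06), and the nuclear receptors NR4A3 and NR4A2 by 0.99 and 0.98 on the log2 scale (adjusted p = 7.35e-06 and 1.17e-05, limma). Many of these genes also answer RAS signalling, so the list is not specific to cyclic AMP. CREB1 itself, named after its value was seen, stood at 0.05 (adjusted p = 0.648).

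With the hairpin 5 of the 23 rose and 2 fell, 30.4% beside 15.7% of all genes, at a median of 0.049. NR4A2 rose 3.35-fold, to 11.05 ± 0.088 in shARID1B+4OHT cells, against 9.31 ± 0.071 in vector+4OHT cells (SD, n = 3 each, adjusted p = 2.84e-06, limma). NR4A3 rose by 0.66 (adjusted p = 0.000612), RGS2, a regulator of G protein signalling, by 0.82 (adjusted p = 5.74e-05), and FOS by 0.33 (adjusted p = 0.00894). Both falls were lost when array medians were subtracted or when any one of the shARID1B+4OHT arrays, vector+4OHT replicate 1 or 2 or vector-4OHT replicate 3 was left out, and 1 was lost without vector+4OHT replicate 3 or vector-4OHT replicate 2, with only the 6 arrays compared, with dim genes left out, with an intensity trend and by the methods' t-test.

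The pattern of SCG2, low in both vector groups and high with the hairpin, was also looked for across genes. Among 738 genes whose group means spanned at least 1 on the log2 scale, the 5 with the highest Pearson correlation with SCG2 over the 9 arrays were TPPP3 (0.991), ID2 (0.986), SNRK (0.986), PSD3 (0.982) and NPPC (0.979). The arrays share the 3 groups, so these correlations are a description and mostly restate group means. TPPP3, a tubulin-binding protein, averaged 8.99 in shARID1B+4OHT, 7.94 in vector+4OHT and 7.89 in vector-4OHT cells. ID2, an inhibitor of basic helix-loop-helix factors, averaged 10.83 in shARID1B+4OHT, 9.83 in vector+4OHT and 9.74 in vector-4OHT cells. SNRK is a kinase related to the SNF1 family and PSD3 an exchange factor for ARF6, and both stood higher with the hairpin, by 0.82 and 0.97. Unlike SCG2 and the rest of the 5, SNRK was also called higher with 4OHT, by 0.23 (adjusted p = 0.0104, limma). All 5 differed less with the hairpin than SCG2 did, which follows largely from the choice of SCG2 for its large difference. The group means of the other members spanned less than 1, so none of them could be listed, and their own correlations with SCG2 lay between -0.508 for VGF and 0.334 for CHGB.

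**Figure D4:**
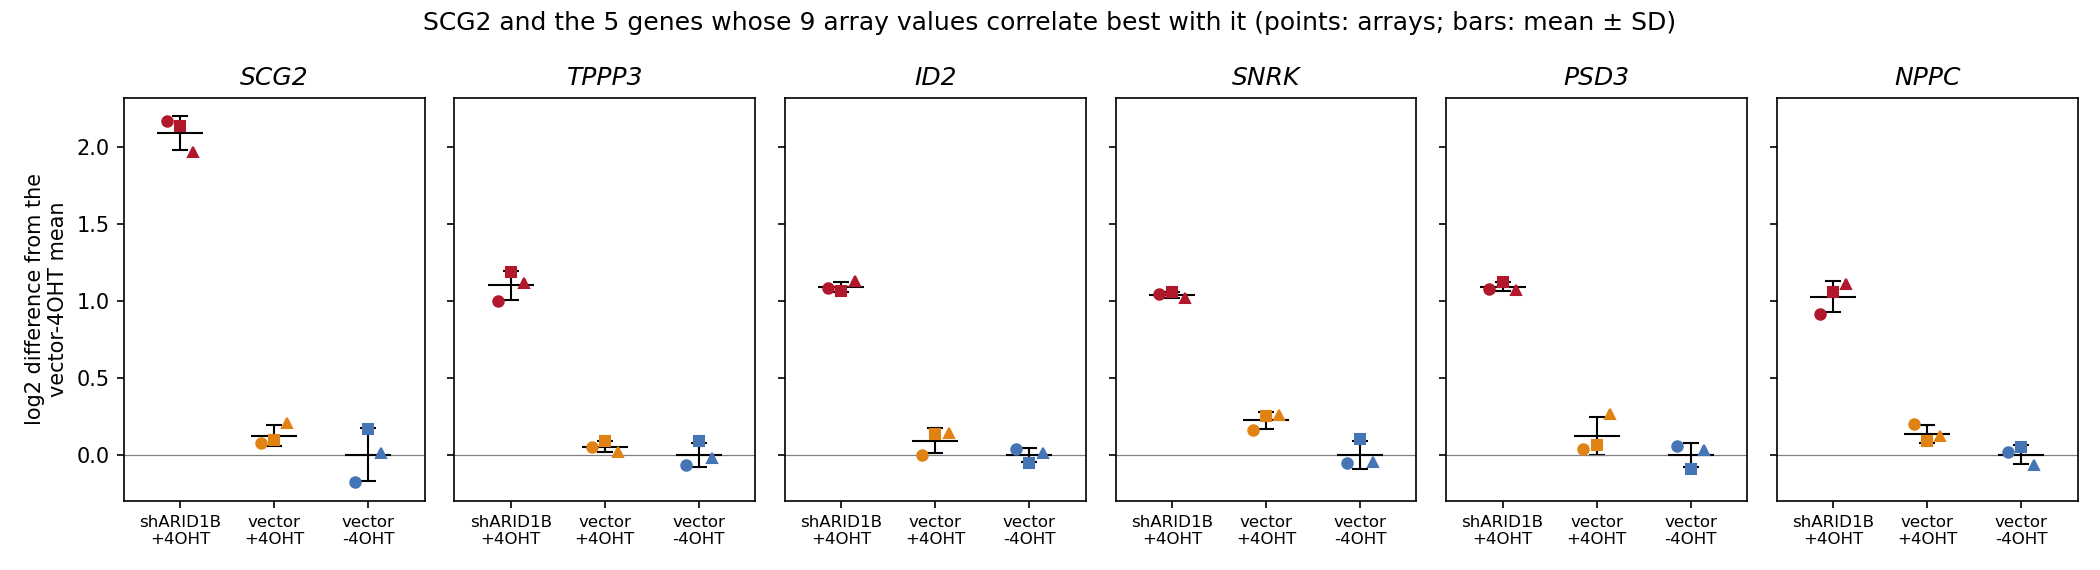
Log2 difference from the vector-4OHT mean (y axis) of SCG2 and of the 5 genes most like it, by group (x axis), with points for arrays (circle, square and triangle for replicates 1, 2 and 3) and bars for the mean and SD. In each of the genes the shARID1B+4OHT arrays stand above all arrays of both vector groups, SCG2 by the widest margin. SCG2 was chosen for its large difference and the other genes for their likeness to it.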

How the data were processed

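Total RNA was hybridised to Human Gene ST arrays (Affymetrix), although the labels' extraction text names a sequencing library kit. The deposited values are on the log2 scale, 1 per probe set and array, made by the authors with RMA, which corrects background, quantile-normalises arrays and summarises probes. The submitters' processing notes also name oligo and limma. Versions and the genome build are not given in the sources used here. Of 33297 probe sets, 19460 carried exactly 1 gene symbol. For genes with several, the one with the highest mean was kept, which left 18417 genes.

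All 9 arrays were fitted with limma 3.58.1 (lmFit, eBayes; R 4.3.3) on a design of the 3 groups alone. All tests were 2-sided, p-values were adjusted by the Benjamini-Hochberg method across the 18417 genes of each comparison, and called means an adjusted p under 0.05. With 3 arrays against 3, the smallest p of an exact permutation test is 0.1. The comparisons with 4OHT and with the hairpin share the vector+4OHT arrays, so opposite changes of a gene in them are not independent. The code of the fit was also run on simulated independent normal values, with changes put into shARID1B+4OHT alone. Tied values and effects shared by arrays were not simulated. The number of arrays limits the precision, and the median residual SD was 0.0843. One value was repeated on all 3 arrays of some group in 721 genes. Dim means a group mean under the median of all probe sets.

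The members and lists were chosen with earlier results of these data known. Named were all members, ARID1B, the called genes of smallest p (up to 4 for a list and comparison) and the 5 genes most like SCG2 among those whose group means spanned at least 1. The lists were granin relatives, proprotein convertases, later processing enzymes, dense-core granules, peptide precursors, REST, the CREB family, and 5 sets of cell type markers. The alternatives were dim genes left out (above that median on fewer than 3 arrays), a replicate block, only the 6 arrays compared, the mean of probe sets, array medians subtracted, an intensity trend with a robust prior, the methods' t-test on the same values, and each array left out.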

Additional observations from a re-analysis of the deposited data

How the results depend on the processing

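SCG5 and CPE with 4OHT stayed past the threshold in the same direction in all 16 alternatives. The number of members called higher with 4OHT was 1 with only the 6 arrays compared and 1 with the methods' t-test, and 1 to 2 over the leave-one-out fits, through VGF. With the hairpin the number called lower was 1 with the methods' t-test and 1 to 2 over the leave-one-out fits, and the number called higher was 1 to 2, counts that carry no test. CHGB changed sign with 4OHT when array medians were subtracted (0.033), and lay between -0.031 and 0.031 over the leave-one-out fits. CHGA lay between -0.052 and 0.075 there. Over all genes the methods' t-test called 3737 with 4OHT and 1446 with the hairpin, against 5996 and 2895, and the hairpin count was 1801 without shARID1B+4OHT replicate 2; the cause was not tested. Same-numbered deviations of different groups correlated between -0.264 and 0.322. Differently numbered arrays were not compared in this way, so whether replicate numbers pair the arrays was not tested. With the replicate number as a block 5658 and 2498 genes were called, no member's call changed (SCG5 adjusted p = 0.000155 with 4OHT), and 1 of the REST genes rose with the hairpin, against 3. Dim members (CHGA, CHGB, SCG3) bound what these arrays can show.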

Other observations

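Of the 10 fibroblast markers 9 fell with 4OHT, where 17.6% of all genes were called lower, the matrix proteoglycan gene DCN by 1.60 (limma, adjusted p = 2.24e-08) and FBLN1, which encodes the matrix protein fibulin, by 1.15 (adjusted p = 5.05e-08). With the hairpin 3 rose and 1 fell, where 9.63% of all genes were called higher and 6.09% lower, DCN rising by 0.65 (adjusted p = 0.000104) and COL1A1 falling by 0.21 (adjusted p = 0.0469). Of the 8 epithelial markers 2 fell and 0 rose with 4OHT, and 2 rose and 0 fell with the hairpin. That is 25% each time, beside 32.6% and 15.7% of all genes. Their median changes were -0.11 and -0.008. KRT19, a keratin of simple epithelia, fell by 1.10 with 4OHT (adjusted p = 1.22e-05) and rose by 0.86 with the hairpin (adjusted p = 0.000321). These KRT19 changes share the vector+4OHT arrays and are not independent. KRT18, another such keratin, stood at 0.06 with 4OHT (adjusted p = 0.693) and -0.22 with the hairpin (adjusted p = 0.122, limma). The part of cell composition in the values of the granins was not tested.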
